A study of Equus caballus with 10 samples.

Results

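The genes described here encode the nuclear subunits of the mitochondrial respiratory chain and ATP synthase in equine tenocytes. They were taken from the expression table by name: NDUFA, NDUFB, NDUFC, NDUFS and NDUFV genes with a number, SDHA to SDHD, the UQCR genes, COX4 to COX8 with an isoform letter, the ATP5 genes, CYC1 and CYCS. The rule found 72 of the 29196 genes in the table, and 69 of them were among the 17992 genes tested. They were 35 genes of complex I, 4 of complex II, 4 of complex III, 8 of complex IV, 19 of ATP synthase, cytochrome c itself (CYCS) and NDUFA4L2, a paralog of NDUFA4. Subunits such as UQCRFS1, COX7A1 and COX7A2 were not analysed here. A further 5 tested genes of subunits or associated proteins, whose names fall outside the rule, are described separately at the end. None of the 13 mitochondrially encoded subunits was analysed here.

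The cells were tenocyte lines grown from the superficial digital flexor tendon of 5 adult horses after death, each line being 1 donor. Each line gave 1 library to each of 2 groups, both cultured for 14 days in a 3-dimensional type 1 collagen gel. The PF-06650833 group received PF-06650833 every day at 100 nM, which inhibits IRAK-4, a kinase downstream of the IL-1 receptor. The IL-1β plus PF-06650833 group received the same inhibitor and also 17 ng/ml IL-1β every 3 to 4 days. Both groups carried the inhibitor, so the comparison measured what IL-1β changed in its presence. Untreated cells and cells given IL-1β alone were not used here.

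The respiratory chain passes electrons from NADH (complex I) and succinate (complex II) through ubiquinone, complex III and cytochrome c to oxygen at complex IV. Complexes I, III and IV move protons out of the mitochondrial matrix, and ATP synthase uses their return to make ATP. Most subunits are encoded in the nucleus and imported, whereas a small core is encoded in mitochondrial DNA. Tendon is a sparsely vascular tissue whose cells also rely strongly on glycolysis.

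Values are log2 expression on the deposited variance-stabilised scale, on which 3.43 stands for 0 reads and high values approach the log2 of the normalised read count. Estimated reads per library, recovered from the spacing of low values, ranged from 26590893 to 36093461, and the lowest normalised count of any tested subunit gene in any library was 227. Tenocyte markers differed between the groups: 5 of 8 tested (62.5%, beside 11.3% of all genes) were lower with IL-1β plus PF-06650833 and 0 were higher in the same limma fit (COL1A1 log2 fold change -1.38, SCX -3.24, MKX -2.85). The 1 tested marker with a log2 fold change above 0 stood at 1.01. That marker was higher in all 5 lines, with an unadjusted p below 0.05 in limma, but was not called. TNMD was at 0 reads in every library. The summed normalised count of the 9 tenocyte markers in the table ran from 873186 to 1443060 with PF-06650833 alone and from 236357 to 991370 with IL-1β. Of 8 leukocyte markers 4 were tested, and 1 of these, CD68, was higher (25.0%, beside 10.9% of all genes). Its log2 fold change was 1.70 (adjusted p = 0.00498 in limma). PTPRC and CSF1R reached at most 4.20 and 3.90, and CD3E was at 0 in every library. Called lower in the same fit were 2 of 3 tested muscle markers (66.7%), 1 of 3 epithelial markers (33.3%) and 0 of 5 endothelial markers. That share was 11.3% over all genes, and no marker of these lists was called higher. The leukocyte sum was 63.3 to 1771 against 172 to 1946, the endothelial sum (6 genes) 16.3 to 50.4 against 5.12 to 30.7, the muscle sum (8 genes) 154 to 1717 against 29.7 to 167, and the epithelial sum (6 genes) 539 to 1574 against 45.4 to 444. MYH2, MYOD1, MYOG, EPCAM and KRT5 were at 0 in every library. The part of these markers in the results below was not tested, and in bulk RNA a change in the number of cells of a type cannot be told apart from a change in RNA per cell.

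Respiratory chain transcripts were modestly higher with IL-1β plus PF-06650833 than with PF-06650833 alone. In a limma fit paired by line, 22 of the 69 tested genes (31.9%) were higher at an adjusted p below 0.05, beside 10.9% of all 17992 genes. The same fit called 0 of the 69 lower, beside 11.3% of all genes, and 1 gene, NDUFA4L2, was lower at an unadjusted p below 0.05 while 43 were higher. The log2 fold change was above 0 for 63 of the 69 genes (91.3%) and for 49.3% of all genes tested. The median log2 fold change was 0.31, a 1.24-fold difference, against -0.01 over all genes. The genes ranged from -0.69 for NDUFA4L2 to 0.73 for NDUFV3, and none reached the study's 2-fold threshold together with an adjusted p below 0.05, which 8.26% of all genes did in either direction.

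How many genes were called depended on the pairing and on the donors. Without a term for the line, limma called 5 of the 69 higher (NDUFS5, NDUFV3, NDUFS7, NDUFB3 and ATP5PF) and 0 lower, a share of 7.25% beside 7.57% of all genes, so that count did not stand out from the background. Leaving out line 1, 2 or 5 left 4, 4 and 5 calls, beside 5.76%, 6.25% and 6.94% of all genes, whereas leaving out line 3 or 4 gave 30 and 24, beside 10.1% and 10.8%. NDUFS5, NDUFV3, NDUFA4 and ATP5MF were called in each of the 5 fits that left out a line. The difference was above 0 in all 5 lines for 35 of the 69 genes (50.7%), beside 16.0% of all genes. The groups did not overlap for 5 of the 69 (7.25%), among them NDUFS5, NDUFV3, NDUFA8 and NDUFB3, beside 6.29% of all genes. Among the 10222 genes at a mean log2 value of at least 8, a background chosen after the values were seen, 13.6% were called higher in the paired fit.

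**Figure D1:**
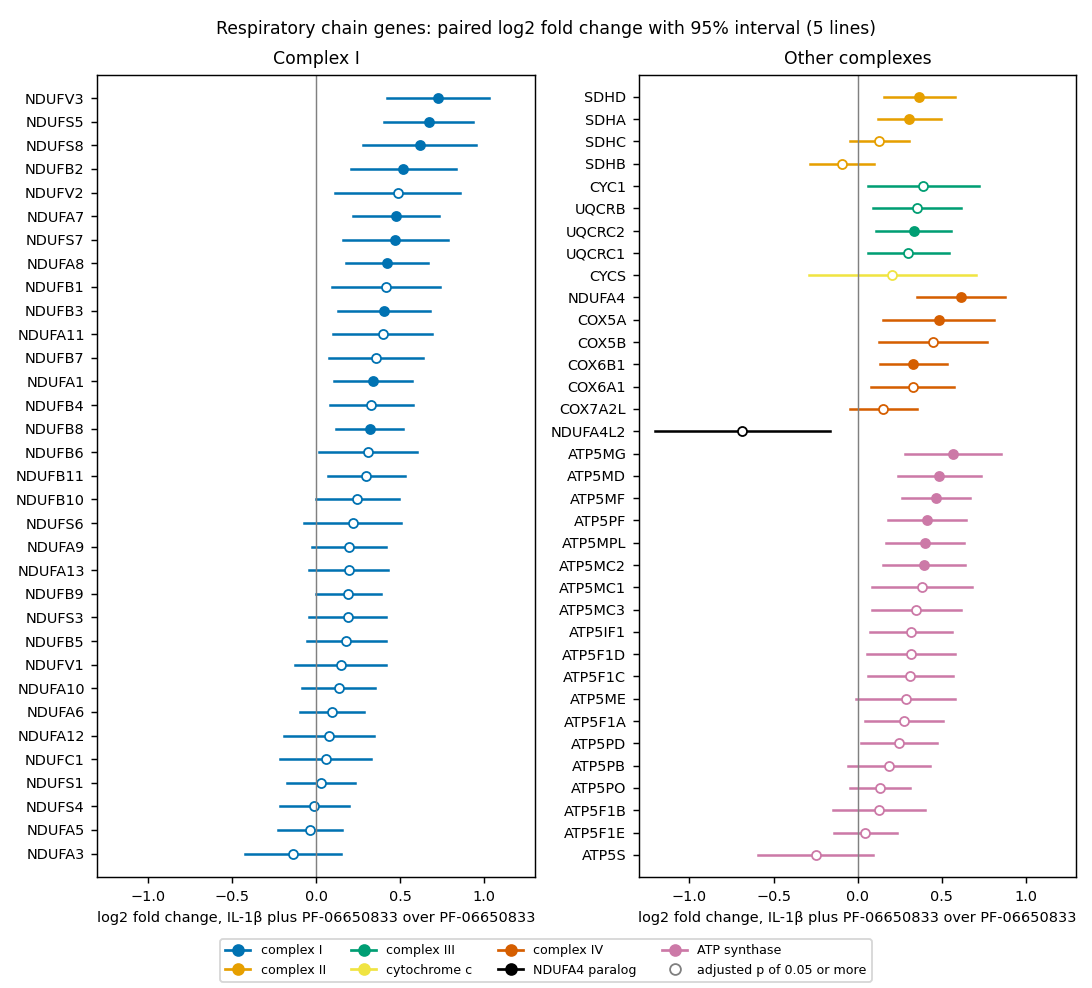
Paired log2 fold change of the tested genes, 1 of the 69 left out (x axis, IL-1β plus PF-06650833 over PF-06650833 alone) with its 95% interval from limma over 5 lines, grouped by complex, with filled points for an adjusted p below 0.05. The 22 filled points all lie to the right of 0, between 0.31 for SDHA and 0.73 for NDUFV3, and NDUFA4L2 at -0.69 stands furthest to the left.

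Complex I, the entry point for electrons from NADH, had 10 of its 34 tested genes higher (29.4%, beside 10.9% of all genes) and 0 lower in the paired fit (unadjusted p below 0.05 in 19 higher and 0 lower), with a median log2 fold change of 0.27. Without the line term 4 were higher, beside 7.57% of all genes. NDUFS5, an accessory subunit, had the smallest adjusted p. It stood at 10.43, 10.38, 10.16, 10.29 and 10.40 in lines 1 to 5 with PF-06650833 alone and at 11.38, 11.06, 10.53, 10.70 and 11.32 with IL-1β plus PF-06650833. Every line was higher with IL-1β, the groups did not overlap, and lines 1 and 5 were the highest in the treated group. The log2 fold change was 0.67 (SE 0.11, adjusted p = 0.00611, and 0.0175 without the line term).

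NDUFV3, an accessory subunit of the NADH-oxidising arm, stood at 12.63, 12.58, 12.45, 11.69 and 12.08 in lines 1 to 5 with the inhibitor alone and at 13.21, 13.01, 12.88, 12.72 and 13.23 with IL-1β. Lines 4 and 5, the lowest with the inhibitor alone, moved the most, and the groups did not overlap. Its log2 fold change of 0.73 (SE 0.13, adjusted p = 0.00755) was the highest of the 69 genes, and its 95% interval (0.42 to 1.03) was the only one of the 22 to reach 2-fold.

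Of the 7 core subunits, which include the carriers of the flavin and of the iron-sulphur clusters, 2 were higher (28.6%, beside 10.9% of all genes). NDUFS8, which binds iron-sulphur clusters near the ubiquinone site, went from 11.37, 11.26, 11.00, 11.53 and 11.43 in lines 1 to 5 with the inhibitor alone to 12.26, 12.06, 11.37, 11.58 and 12.39 with IL-1β. Lines 1, 2 and 5 lay well above all values of the inhibitor group, line 4 lay just above them and line 3 lay within them (log2 fold change 0.62, SE 0.14, adjusted p = 0.0210). NDUFS7, the subunit next to that site, was higher in 4 lines (log2 fold change 0.47, SE 0.14, adjusted p = 0.0428). NDUFS1, the largest of the core subunits, stood at 11.53, 11.45, 11.66, 11.44 and 11.39 in lines 1 to 5 with the inhibitor alone and at 11.49, 11.60, 11.48, 11.43 and 11.60 with IL-1β. Its groups overlapped throughout and its log2 fold change was 0.03 (95% interval -0.17 to 0.23, adjusted p = 0.853).

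Among the 27 accessory subunits, which surround the core and take part in its assembly and stability, 8 were higher (29.6%, beside 10.9% of all genes). Besides NDUFS5 and NDUFV3 they were NDUFA7 (log2 fold change 0.47, adjusted p = 0.0195), NDUFA8 (0.42, 0.0264), NDUFA1 (0.34, 0.0453) and the membrane-arm subunits NDUFB2 (0.52, 0.0296), NDUFB8 (0.32, 0.0350) and NDUFB3 (0.40, 0.0443). Of these, NDUFA8 and NDUFB3 had groups that did not overlap. NDUFS4, NDUFA5 and NDUFA3 had log2 fold changes of -0.01, -0.04 and -0.14 (adjusted p = 0.937, 0.779 and 0.464), the lowest of the complex. The median was 0.30 over the accessory subunits and 0.25 over the core subunits.

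In complex II, the succinate dehydrogenase shared with the citric acid cycle, 2 of 4 genes were higher in the paired fit, where 10.9% of all genes were, and neither was called without the line term. SDHA, the flavoprotein that oxidises succinate, stood at 12.51, 12.58, 12.51, 12.17 and 12.21 in lines 1 to 5 with the inhibitor alone and at 12.86, 12.75, 12.72, 12.57 and 12.63 with IL-1β (log2 fold change 0.31, SE 0.08, adjusted p = 0.0318). SDHD, a membrane anchor, stood at 11.26, 11.22, 11.15, 10.97 and 11.14 in lines 1 to 5 with the inhibitor alone and at 11.73, 11.55, 11.30, 11.22 and 11.76 with IL-1β (log2 fold change 0.37, SE 0.09, adjusted p = 0.0261). Both were higher with IL-1β in each of the 5 lines, with groups that overlapped. The iron-sulphur subunit SDHB stood at 11.05, 11.02, 10.86, 10.97 and 11.17 in lines 1 to 5 with the inhibitor alone and at 11.15, 10.77, 10.71, 10.86 and 11.10 with IL-1β. It was lower in 4 lines and higher in line 1, with a log2 fold change of -0.09 (95% interval -0.28 to 0.10, adjusted p = 0.463). SDHC, the other membrane anchor, had a log2 fold change of 0.13 (95% interval -0.05 to 0.31, adjusted p = 0.265). Whether SDHA and SDHB changed differently was not tested.

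Complex III, which hands electrons from ubiquinol to cytochrome c, had 1 of 4 tested genes higher in the paired fit, beside 10.9% of all genes. UQCRC2, a core protein of the matrix side, stood at 11.85, 11.58, 11.80, 11.51 and 11.78 in lines 1 to 5 with the inhibitor alone and at 12.09, 12.10, 11.81, 11.92 and 12.25 with IL-1β (log2 fold change 0.33, SE 0.10, adjusted p = 0.0449). Line 3 barely moved and the other lines were higher. This call was lost without the line term (adjusted p = 0.0569), with no filter on low values, with quantile normalisation, without the mean-variance trend and in 4 of the 5 fits that left out a line (adjusted p up to 0.149). UQCRB missed the threshold narrowly, with a log2 fold change of 0.35 (adjusted p = 0.0588).

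CYC1, the cytochrome c1 of complex III, stood at 11.97, 11.78, 12.18, 12.29 and 12.08 in lines 1 to 5 with the inhibitor alone and at 12.57, 12.50, 12.06, 12.36 and 12.75 with IL-1β. Lines 1, 2 and 5 were higher, line 4 was slightly higher and line 3 was lower (log2 fold change 0.39, SE 0.14, adjusted p = 0.0881). CYCS, the soluble carrier that also triggers apoptosis when it leaves mitochondria, stood at 11.29, 10.95, 11.53, 11.41 and 11.22 in lines 1 to 5 with the inhibitor alone and at 11.64, 11.64, 10.96, 11.09 and 12.10 with IL-1β. It was higher in lines 1, 2 and 5 and lower in lines 3 and 4, and its log2 fold change of 0.20 had a 95% interval of -0.29 to 0.70 (adjusted p = 0.538).

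Complex IV, the oxidase that reduces oxygen to water, had 3 of 6 tested genes higher in the paired fit, beside 10.9% of all genes. Without the line term it had 0, beside 7.57% of all genes. NDUFA4, named for complex I but since assigned to complex IV, stood at 11.39, 11.14, 10.91, 11.02 and 11.39 in lines 1 to 5 with the inhibitor alone and at 12.07, 11.99, 11.18, 11.40 and 12.28 with IL-1β. All 5 lines were higher, lines 1, 2 and 5 by more than lines 3 and 4, and the groups overlapped (log2 fold change 0.61, SE 0.11, adjusted p = 0.00801, and 0.0671 without the line term). COX5A, a nuclear subunit on the matrix side, stood at 11.14, 10.91, 11.17, 11.05 and 11.10 in lines 1 to 5 with the inhibitor alone and at 11.78, 11.63, 11.27, 11.10 and 12.01 with IL-1β. Lines 3 and 4 changed little (log2 fold change 0.48, SE 0.14, adjusted p = 0.0468). COX6B1, which lies where the monomers of the enzyme meet, was higher in 5 lines (log2 fold change 0.33, SE 0.09, adjusted p = 0.0301). COX5B (log2 fold change 0.45, adjusted p = 0.0535) lay just past the threshold, and COX6A1, the form used outside heart and skeletal muscle, had a log2 fold change of 0.33 (0.0652).

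NDUFA4L2, the paralog that is induced in hypoxia and has been linked to lower complex I activity, had the lowest log2 fold change of the 69 genes. It stood at 13.07, 13.07, 14.02, 12.96 and 11.17 in lines 1 to 5 with PF-06650833 alone and at 12.89, 11.66, 13.80, 12.75 and 9.77 with IL-1β plus PF-06650833. All 5 lines were lower, lines 2 and 5 by the most (differences -0.18, -1.42, -0.21, -0.21 and -1.41 in lines 1 to 5), while the lines themselves spread widely in both groups. The log2 fold change was -0.69 (SE 0.22, 95% interval -1.21 to -0.16), which did not pass at an adjusted p of 0.0651, or 0.571 without the line term. With array weights, which weight each library by its fit, it passed at 0.0489 (log2 fold change -0.71), the 1 gene called lower there. Within each line the change of NDUFA4L2 minus that of NDUFA4 was -0.87, -2.26, -0.49, -0.59 and -2.29 in lines 1 to 5. The sign of that contrast was the same in all 5 lines, and since the pair was singled out for opposite movement it is given as a description.

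**Figure D2:**
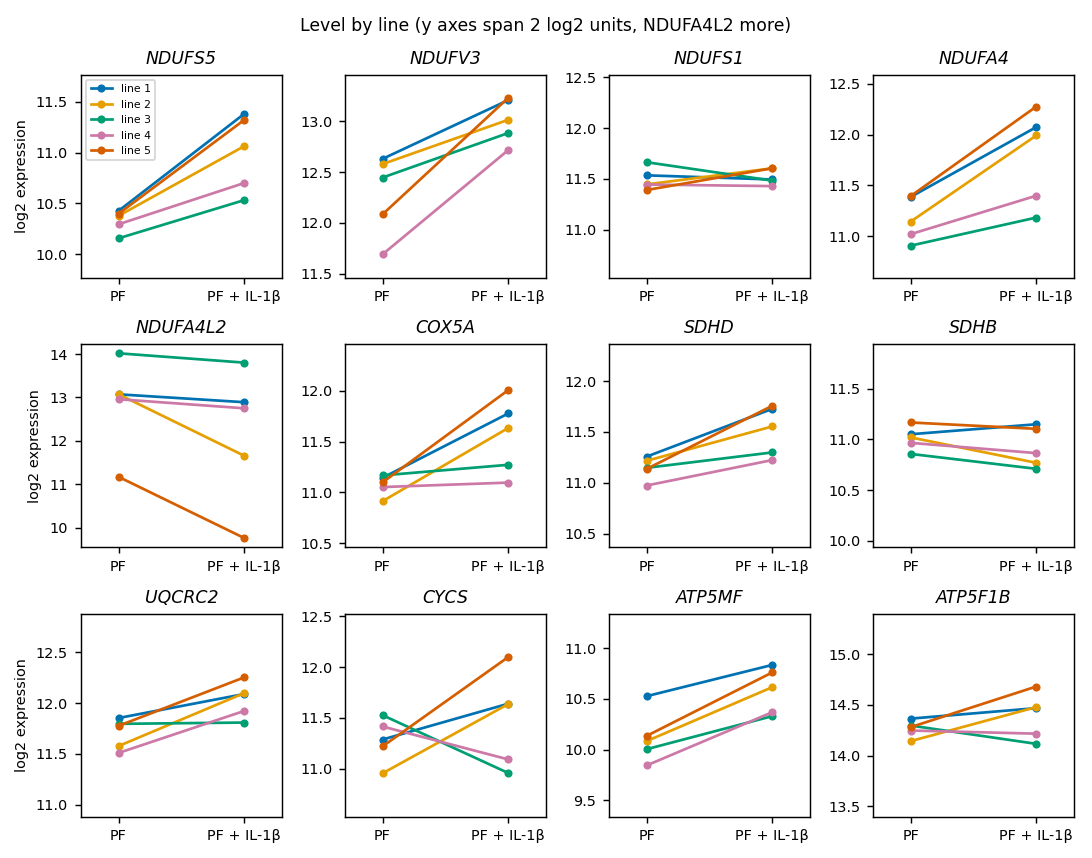
Log2 expression of 12 genes (y axis) with PF-06650833 alone and with IL-1β plus PF-06650833, 1 coloured line per tenocyte line. NDUFS5, NDUFV3, NDUFA4 and ATP5MF slope upward in all 5 lines, NDUFA4L2 slopes downward in all 5, and CYCS slopes upward in lines 1, 2 and 5 and downward in lines 3 and 4.

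ATP synthase, which makes ATP from the proton gradient, had 6 of 19 genes higher in the paired fit (31.6%, beside 10.9% of all genes), with a median log2 fold change of 0.32. Without the line term 1 (ATP5PF) was higher, beside 7.57% of all genes. All 6 genes called in the paired fit belonged to the 12 genes of the membrane sector and its stalks. They were the small membrane subunits ATP5MG (log2 fold change 0.56, adjusted p = 0.0160), ATP5MD (0.49, 0.0166), ATP5MF (0.46, 0.00892) and ATP5MPL (0.40, 0.0268), the stalk subunit ATP5PF (0.41, 0.0238) and ATP5MC2 (0.39, 0.0333), which encodes subunit c of the rotor ring. The other subunit c genes, ATP5MC1 and ATP5MC3, had log2 fold changes of 0.38 (0.0692) and 0.35 (0.0636).

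ATP5MF stood at 10.53, 10.08, 10.00, 9.84 and 10.13 in lines 1 to 5 with PF-06650833 alone and at 10.83, 10.61, 10.33, 10.37 and 10.76 with IL-1β. Each line was higher, and only line 1 of the inhibitor group reached into the treated range. ATP5MG stood at 11.77, 11.66, 11.42, 11.39 and 11.70 in lines 1 to 5 with the inhibitor alone and at 12.33, 12.15, 11.62, 11.89 and 12.77 with IL-1β. Every line was higher with IL-1β, line 5 by the most and line 3 by the least (log2 fold change 0.56, SE 0.12, adjusted p = 0.0160).

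Of the 5 genes of the catalytic head, limma called 0 higher and 0 lower, beside 10.9% and 11.3% of all genes. Their median log2 fold change was 0.28, and 3 were higher at an unadjusted p below 0.05. These were ATP5F1C, ATP5F1D and ATP5F1A (adjusted p = 0.0751, 0.0829 and 0.0853 in limma). The catalytic subunit ATP5F1B stood at 14.37, 14.14, 14.30, 14.25 and 14.28 in lines 1 to 5 with the inhibitor alone and at 14.47, 14.48, 14.12, 14.22 and 14.68 with IL-1β. Its groups overlapped and its log2 fold change was 0.13 (95% interval -0.15 to 0.40, adjusted p = 0.49). A difference between the head and the membrane sector was not tested. ATP5IF1, which inhibits reverse rotation of the enzyme, had a log2 fold change of 0.32 (adjusted p = 0.0686), and ATP5S, a coupling factor, was at -0.25 (0.266).

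The 3 genes that were not tested had too few libraries above 0 reads. NDUFA2 was at 0 in all PF-06650833 libraries and reached 4.82 and 5.71 in lines 2 and 5 with IL-1β, at most 28 estimated reads. Whether the 0 values of NDUFA2 reflect absent expression or the way reads were assigned was not tested. COX6A2, the heart and muscle form of COX6A1, was above 0 in line 3 with IL-1β only, at 3.90. COX7B2 was at 4.50 in line 3 with the inhibitor alone and at 3.90 in lines 2 and 3 with IL-1β.

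The difference was larger in lines 1, 2 and 5 than in lines 3 and 4. Over the 69 genes the median within-line difference was 0.44, 0.37, 0.02, 0.08 and 0.48 in lines 1 to 5, and 62, 65, 43, 53 and 65 genes were higher. The mean change over complex I was 0.43, 0.34, 0.06, 0.13 and 0.44 and over complex IV 0.57, 0.53, 0.08, 0.16 and 0.62. Complexes II and III gave 0.26, 0.12, 0.05, 0.15 and 0.29 and 0.42, 0.57, -0.03, 0.21 and 0.55, and ATP synthase gave 0.36, 0.36, 0.07, 0.15 and 0.49. In each complex lines 1, 2 and 5 were the highest except for complex II, where line 4 was above line 2. Of the 22 called genes, 20 were higher in all 5 lines, 22 had their largest difference in line 1, 2 or 5, and 19 had their smallest in line 3 or 4.

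The lines were also compared over all genes. The median absolute difference over all genes was 0.344, 0.385, 0.254, 0.332 and 0.413 in lines 1 to 5, so line 4 lay close to line 1. With 1 library per line and group, a difference between lines in the response cannot be tested. The SD between lines was larger with IL-1β plus PF-06650833 than with PF-06650833 alone for 59 of the 69 genes (85.5%), beside 57.2% of all genes. Its median was 0.143 with the inhibitor alone and 0.250 with IL-1β, beside 0.266 and 0.304 over all genes. Over the 10222 genes at a mean log2 value of at least 8 it was 0.191 and 0.232. The 72 genes took 0.485% to 0.562% of the normalised counts (median 0.517%) with PF-06650833 alone and 0.534% to 0.753% (median 0.632%) with IL-1β.

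**Figure D3:**
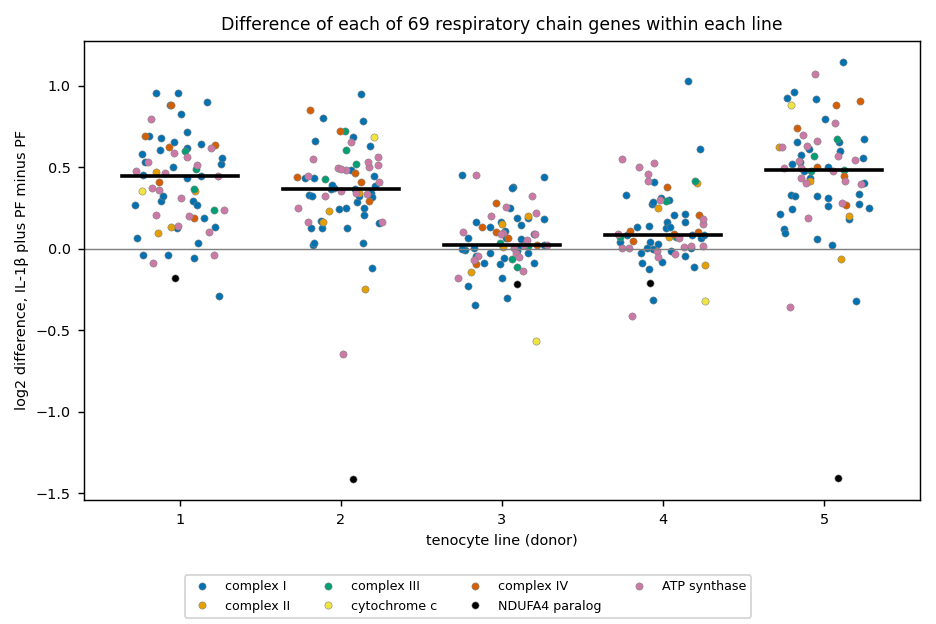
Difference in log2 expression (y axis, IL-1β plus PF-06650833 minus PF-06650833 alone) of each of the 69 tested genes in each of the 5 lines (x axis), coloured by complex, with a bar at the median. The medians stand at 0.44, 0.37, 0.02, 0.08 and 0.48 in lines 1 to 5, and NDUFA4L2 lies far below the rest in lines 2 and 5.

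Genes around the respiratory chain were read in the same paired fit. Of 5 tested genes of subunits or associated proteins with other names, 2 were higher (40.0%, beside 10.9% of all genes). They were NDUFAB1, the acyl carrier protein of complex I (log2 fold change 0.38, SE 0.11, adjusted p = 0.0385), and HIGD2A, a complex IV associated protein (log2 fold change 0.61, SE 0.10, adjusted p = 0.00601). COX4I1, the widely expressed complex IV subunit, had a log2 fold change of 0.28 (adjusted p = 0.0895), and COX4I2, its low-oxygen form, was near the lowest level in every library. Of the assembly factors, which build the complexes, 4 of 42 were higher (9.52%, beside the 10.9% of all genes). In the other direction 1 was lower (2.38%, beside 11.3%), and the median log2 fold change was 0.06. The called genes were TTC19 (log2 fold change 0.75, adjusted p = 0.0166), PET100 (0.54, 0.0152), FMC1 (0.57, 0.0257), COA3 (0.37, 0.0251) and, lower, LYRM7 (-0.60, 0.0233).

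Among 21 regulators of mitochondrial biogenesis and mitochondrial DNA expression, 1 was higher (4.76%, beside 10.9% of all genes) and 0 lower in limma (1 higher and 1 lower at an unadjusted p below 0.05). It was ESRRA, a nuclear receptor that drives oxidative genes, which stood at 10.14, 10.26, 10.11, 10.32 and 10.32 in lines 1 to 5 with the inhibitor alone and at 10.96, 10.93, 10.43, 10.83 and 10.92 with IL-1β (log2 fold change 0.58, SE 0.10, adjusted p = 0.00513). It was higher in every line. TFAM, which packages and transcribes mitochondrial DNA, had a log2 fold change of 0.15 (adjusted p = 0.251) and NRF1, an activator of respiratory genes, at 0.00 (0.997). PPARGC1A was at 0 reads in 9 of 10 libraries.

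Some single genes of the lists around the chain changed by more than any subunit gene. At 2-fold or more, 2 of 24 genes of pyruvate dehydrogenase and the citric acid cycle were called. So was 1 of 19 genes of electron entry to ubiquinone and its synthesis. These counts were close to or below the 8.26% of all genes called at 2-fold in either direction. Of 24 genes of pyruvate dehydrogenase and the citric acid cycle, 6 were higher (25.0%, beside 10.9% of all genes) and 1 lower (4.17%, beside 11.3%). PDK4, a kinase that switches pyruvate dehydrogenase off, was at 5.03, 6.40, 4.92, 4.73 and 5.66 in lines 1 to 5 with the inhibitor alone and at 7.75, 9.49, 7.36, 7.03 and 8.95 with IL-1β (log2 fold change 2.76, SE 0.20, adjusted p = 2.21e-04). MDH2, malate dehydrogenase of the cycle, was higher by a log2 fold change of 1.02 (adjusted p = 0.00450) and pyruvate carboxylase PC by 0.97 (0.0171), whereas PDK1 was lower at -0.47 (0.0312). Of 19 genes of electron entry to ubiquinone and its synthesis, limma called 7 higher (36.8%, beside 10.9% of all genes) and 0 lower, beside 11.3% (unadjusted p below 0.05 in 8 higher and 3 lower). They included ETFDH, which passes electrons from fatty acid oxidation (log2 fold change 0.80, adjusted p = 0.00413), and GPD2 of the glycerol phosphate shuttle (1.06, 0.00592).

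Of 26 import and carrier genes, 4 were higher (15.4%) and 2 lower (7.69%), beside 10.9% and 11.3% of all genes. TOMM7 of the outer membrane translocase was higher by a log2 fold change of 1.13 (adjusted p = 0.00394), TIMM8B, a chaperone between the membranes, by 0.76 (0.0108) and the carrier UCP2 by 1.93 (0.0179). SLC25A4, an ADP/ATP carrier, was lower at -1.02 (0.0204), as was the outer membrane channel VDAC3 at -0.43 (0.0120). Of 73 mitochondrial ribosomal protein genes, 7 were higher (9.59%, close to the 10.9% of all genes). The list had 1 lower gene (1.37%, beside 11.3% of all genes) and a median log2 fold change of 0.19. MRPS6 (log2 fold change 0.55, adjusted p = 0.00963) and MRPL34 (0.58, 0.0211) were among the higher and MRPS9 (-0.45, 0.0360) was the lower one.

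**Figure D4:**
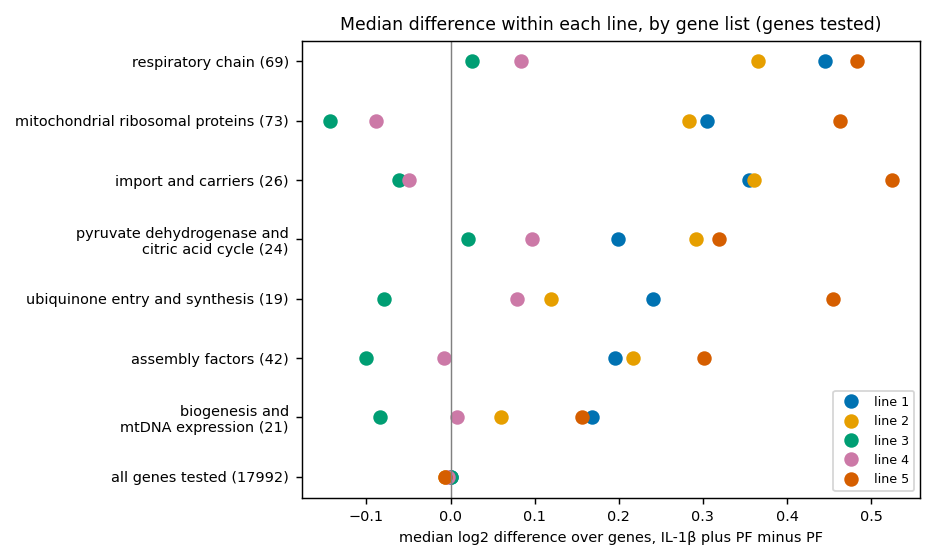
Median difference in log2 expression over the tested genes of each list (x axis, IL-1β plus PF-06650833 minus PF-06650833 alone), 1 point per line. Lines 1, 2 and 5 lie above 0 in every mitochondrial list, lines 3 and 4 lie to the left of them, and all genes tested lie near 0 in each line.

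By line, the ribosomal protein genes had medians of 0.31, 0.28, -0.14, -0.09 and 0.46 and the import and carrier genes 0.35, 0.36, -0.06, -0.05 and 0.53 in lines 1 to 5. The citric acid cycle list gave 0.20, 0.29, 0.02, 0.10 and 0.32. Lines 1, 2 and 5 were the highest in these lists, as they were for the subunits.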

How the data were processed

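RNA from 10 libraries (5 donor lines, 2 groups) was sequenced after polyA selection. Per the labels and the study's methods, the authors checked reads with FastQC 0.11.9, quantified transcripts of EquCab3.0 with Salmon 1.8 and used tximport and DESeq2 1.36. The deposited table holds log2 values whose form and shared lowest value, 3.43, match a variance-stabilising transformation, which the sources used here do not name, and which limits how read counts can be recovered. Because these are not counts, limma 3.58.1 in R 4.3.3 was used, with a mean-variance trend, on the 17992 genes that exceeded this minimum in 5 or more of the 10 libraries, and p-values were adjusted by Benjamini-Hochberg over all of them.

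Fold changes are of IL-1β plus PF-06650833 over PF-06650833 alone. The main fit has a term for line, because both libraries of a number come from the same donor. Deviations from the group means correlated at 0.433 on average within lines (0.367 to 0.506) and at -0.107 between lines over all genes tested. The deviations of a group sum to 0 for each gene, so the value between lines follows from that within lines and is no separate check. Over the subunit genes the correlation within lines was 0.323 (-0.234 to 0.878). The study names no line term, so the fit without it was an alternative, beside other filters, normalisations, pseudocounts (1 and 0.5) on back-transformed counts, variance models, thresholds and leaving out each line. Fold changes are given with the SE or 95% interval of the fit, and the replicates are donors.

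Named genes were all called members, the complex II genes, CYC1, CYCS, NDUFA4, NDUFA4L2, the isoform pairs, ATP5MC1 to ATP5MC3 and ATP5IF1, and up to 3 called genes per direction of each other list. Others named for their values were chosen after seeing them. The members and lists were chosen with earlier results of these data known. Scripts were tested on simulated data. Promoter sequences were not analysed here, and 1 tested gene is counted but not named in the text or the plots. Near-identical gene copies could share reads.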

Additional observations from a re-analysis of the deposited data

Results flagged for a closer look

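In 3 of 78 groups of 5 libraries examined for the named genes, 1 library stood apart from the other 4 by Dixon's criterion, where chance flags about 1 in 20, or 3.9. NDUFA8 with PF-06650833 alone was 10.42 in line 4, below 10.62 to 10.67 in the other lines. NDUFB8 with PF-06650833 alone was 10.77 in line 3, below 10.99 to 11.04 in the others. COX4I2 with IL-1β plus PF-06650833 was at the lowest value, 3.43, in line 4, against 4.06 to 4.24 in the others, and rested on at most 3 estimated reads in any library of that group. NDUFA8 and NDUFB8 were called higher, and in both the low library is the one they are compared with within its line. Without line 4 NDUFA8 had a log2 fold change of 0.46 (adjusted p = 0.0346 in limma), beside 0.42 with all lines. For NDUFB8 the difference in line 3 was 0.16, the smallest of the 5 lines.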

How the results depend on the processing

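The median log2 fold change of the subunit genes kept its sign under every alternative run, from 0.25 to 0.38 when a line was left out and from 0.29 to 0.35 otherwise, while the count of 22 called genes did not hold. Without the replicate block (no line term) it was 5, with complex I at 4, ATP synthase at 1, complexes II, III and IV at 0, the citric acid cycle list at 4 and the mitochondrial ribosome at 5. At an adjusted p below 0.01 it was 4, with complex I at 2, complexes II and III at 0, complex IV at 1, ATP synthase at 1, assembly factors at 0, the citric acid cycle at 2, import at 1, ubiquinone at 2 and the ribosome at 1. The share of all genes at that threshold is not given here. At 2-fold or more it was 0, as in every complex, the assembly factors, biogenesis and the ribosome, with the citric acid cycle at 2, import at 3 and ubiquinone at 1, and without the line term the same except import at 2. Without the mean-variance trend it was 8 of 69, all higher, beside 9.52% of all genes called higher (complex I 4, II 0, III 0, IV 1, ATP synthase 3, ubiquinone 4, ribosome 3). With array weights it was 41 of 69, of which 40 were higher, beside 13.6% of all genes called higher (complex I 17, III 4, IV 5, ATP synthase 12, assembly 8, biogenesis 2, ribosome 19). With no filter and with quantile normalisation complex III had 0, and quantile normalisation gave biogenesis 2. Leaving out each line gave 4 to 30 calls (complex I 2 to 13, II 0 to 2, III 0 to 3, IV 1 to 5, ATP synthase 1 to 10, assembly 0 to 7, ubiquinone 2 to 6, import 4 to 8, biogenesis 1 to 1, ribosome 1 to 12, citric acid cycle 3 to 8), and 0 lower in each. The fewest came without line 1 or 2 and the most without line 3. All 5 calls made without the line term were among the 22. COX4I2, called in none of these, ranged from a log2 fold change of -0.26 without line 2 to 0.027 without line 4, where its sign reversed. The cause of these differences was not tested.

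With 5 donors the median SE of a subunit gene was 0.107 on the log2 scale (0.132 without the line term). The table gives no library totals, so depth was estimated.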
